A study of Mus musculus with 6 samples.

Results

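The report concerns 10 genes at the entry into the cell cycle: the D cyclins Ccnd1, Ccnd2 and Ccnd3, the kinases Cdk4 and Cdk6, the CIP/KIP inhibitors Cdkn1b and Cdkn1c, and the INK4 inhibitors Cdkn2a, Cdkn2b and Cdkn2c. They were picked by symbol from the 31401 genes of the deposited table, where each has 1 row, and all 10 passed the filter on low counts. The cells were primary osteoblasts, the bone-forming cells, obtained by trypsin and collagenase digestion of calvaria (flat skull bones) of 3-day-old wild-type C57BL/6 mice. In osteogenic induction medium, 3 samples were kept for 6 days with 10 μM ZM, which the series title gives as ZM-306416, a small molecule known to inhibit VEGF receptors and the EGF receptor, and 3 control samples were kept without it. RNA sequencing libraries made with an mRNA kit came from all 6 samples, which carry 1 batch label. Nothing in the labels tells whether replicates were grown as separate cultures or how many animals were pooled. The p-values below therefore describe the scatter of these 6 libraries, and that scatter could be technical alone.

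D cyclins bind and switch on CDK4 and CDK6, and the active kinases phosphorylate the pocket proteins RB1, RBL1 and RBL2, which releases E2F factors to turn on genes of DNA replication. INK4 inhibitors bind CDK4 and CDK6 and keep D cyclins off them. CIP/KIP inhibitors bind cyclin-CDK complexes, block those of cyclin E or A with CDK2, and are also held by cyclin D complexes. In osteoblasts, growth factors act on this step through D cyclin transcription, and cells leave the cycle as they mature.

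Libraries held 42721326 to 69867931 counts. Markers of the cell types such cultures can hold were summed in CPM (counts scaled to library size with edgeR's TMM factors). The 11 osteoblast markers came to 19450 to 20440 CPM in ZM and 30210 to 31070 CPM in control libraries. Of the 9 tested, 4 were higher with ZM and 2 lower, with a median log2 fold change (ZM over control) of 0.29. Bglap and Dmp1, late osteoblast markers, had under 10 counts in every library. The 14 macrophage markers summed to 11140 to 12350 CPM in ZM and 20940 to 21910 CPM in control libraries, 13 lower and 1 higher. The 9 osteoclast markers summed to 1048 to 1076 CPM in ZM and 514.8 to 549.0 CPM in control libraries, all 9 higher. Endothelial markers summed to 3.393 to 4.065 CPM in ZM and 7.046 to 9.208 CPM in control libraries, chondrocyte markers to 30.84 to 32.28 and 15.08 to 19 CPM, adipocyte markers to 75.91 to 86.28 and 83.02 to 85.8 CPM, and lymphocyte markers to 0.9235 to 1.269 and 0.9047 to 1.386 CPM. No marker in the table was at 0 in every library. The cultures were thus labelled osteoblasts but also held macrophage and osteoclast transcripts, whose levels moved with ZM. The osteoblast sum moved too, lower with ZM although more of its markers were called higher than lower. Endothelial and chondrocyte sums also did not overlap between the groups. The part of these cell types in the differences below was not tested. In such bulk samples fewer cells of a type and less RNA per cell cannot be told apart.

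Promoter windows, the 250 bases before a RefSeq start on GRCm38.p6 (mm10), were at hand for 7 of the 10 genes. Shown are those of Cdkn2a, Cdkn2b and Cdkn1b, whose levels changed and whose chromosome 4 pair moved in opposite directions, and that of Cdk4, for its repeated E-box. Capitals mark the E2F word in the Cdkn2a windows, the cAMP response element in Cdkn2b, the forkhead word and CCAAT boxes in Cdkn1b and the E-boxes in Cdk4, while other matches stay in lower case. Positions count back from the base before the start, giving the motif's first base. Each is printed 5′ to 3′ on the gene's strand.
Cdkn2a, ARF start, chr4:89294620-89294869, minus strand: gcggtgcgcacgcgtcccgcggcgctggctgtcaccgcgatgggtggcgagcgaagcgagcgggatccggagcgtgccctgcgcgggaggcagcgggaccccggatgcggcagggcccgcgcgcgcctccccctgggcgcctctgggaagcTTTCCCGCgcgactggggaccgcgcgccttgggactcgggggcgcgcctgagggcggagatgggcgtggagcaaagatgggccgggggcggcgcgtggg
Cdkn2a, INK4a start, chr4:89282193-89282442, minus strand: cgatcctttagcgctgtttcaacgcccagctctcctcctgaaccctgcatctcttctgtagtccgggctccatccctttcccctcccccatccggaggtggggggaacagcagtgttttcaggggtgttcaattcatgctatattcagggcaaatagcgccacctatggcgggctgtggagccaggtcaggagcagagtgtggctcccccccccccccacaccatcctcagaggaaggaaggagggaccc
Cdkn2b, chr4:89311033-89311282, minus strand: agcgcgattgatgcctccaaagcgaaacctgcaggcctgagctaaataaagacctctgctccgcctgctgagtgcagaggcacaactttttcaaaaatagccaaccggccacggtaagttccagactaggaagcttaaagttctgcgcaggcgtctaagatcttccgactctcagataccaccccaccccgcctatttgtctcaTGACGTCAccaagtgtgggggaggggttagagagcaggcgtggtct
Cdkn1b, chr6:134920151-134920400, plus strand: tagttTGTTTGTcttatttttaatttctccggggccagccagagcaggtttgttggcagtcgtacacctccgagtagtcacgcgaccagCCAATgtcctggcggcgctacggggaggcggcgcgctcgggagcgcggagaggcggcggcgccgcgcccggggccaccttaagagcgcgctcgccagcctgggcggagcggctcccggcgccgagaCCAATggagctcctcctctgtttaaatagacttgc
Cdk4, chr10:127063285-127063534, plus strand: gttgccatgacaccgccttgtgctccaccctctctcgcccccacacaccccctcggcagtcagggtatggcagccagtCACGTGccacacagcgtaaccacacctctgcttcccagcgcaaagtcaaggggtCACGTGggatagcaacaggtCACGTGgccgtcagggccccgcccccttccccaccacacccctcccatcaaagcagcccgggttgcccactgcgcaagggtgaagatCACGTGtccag

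The words searched, on both strands, were the E-box CACGTG, the cAMP response element TGACGTCA, the AP-1 site TGACTCA, the forkhead site TGTTTAC or TGTTTGT, the E2F site TTTCGCGC, TTTCCCGC, TTTGGCGC or TTTGCCGC, the GC box GGGCGG, the CCAAT box CCAAT and the TATA box TATAAA. No searched word overlaps a marked one in these windows. The ARF window held 1 E2F word at -99, a word set found in 1.86% of the 32851 windows in the table, and 2 GC boxes, at -48 and -14, a word found in 32.7%. In the INK4a window none of the words was found. The Cdkn2b window held 1 cAMP response element at -46, present in 1.55% of windows. The Cdkn1b window held a forkhead word at -245, a set present in 8.74% of windows, CCAAT boxes at -161 and -35, present in 33.8%, and a GC box at -61. The Cdk4 window held 4 E-boxes, at -172, -118, -98 and -11, where 6.02% of windows held any, and a GC box at -80. Of the windows not shown, that of Cdk6 held an E-box at -220 and a TATA box (12.4% of windows) at -103. A Ccnd3 window held a forkhead word at -243, and the other Ccnd3 window a CCAAT box at -108. Both Ccnd3 windows and 1 of Cdkn2c held GC boxes. These matches are letters in a window and carry no measurement of binding.

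With ZM the 3 D cyclins rose by nearly the same amount, Cdkn1b and Cdkn2b rose, Cdkn1c rose 4.70-fold, and Cdkn2a and Cdk4 fell. The edgeR quasi-likelihood test called 8 of the 10 genes at an adjusted p below 0.05, 6 higher and 2 lower, while Cdk6 and Cdkn2c did not pass. The groups did not overlap in CPM for 10 of 10 genes. As background, the same test called 45.3% of 17533 tested genes, 22.8% higher and 22.4% lower, and 54.2% of tested genes did not overlap. Most changes were under 2-fold. Of the 10 genes, 6 were called with a difference of at least 1.2-fold (29.7% of all genes tested) and 1 with at least 2-fold (7.58%). The median log2 fold change was 0.28 over the 10 genes and -9e-04 over all genes tested.

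**Figure D1:**
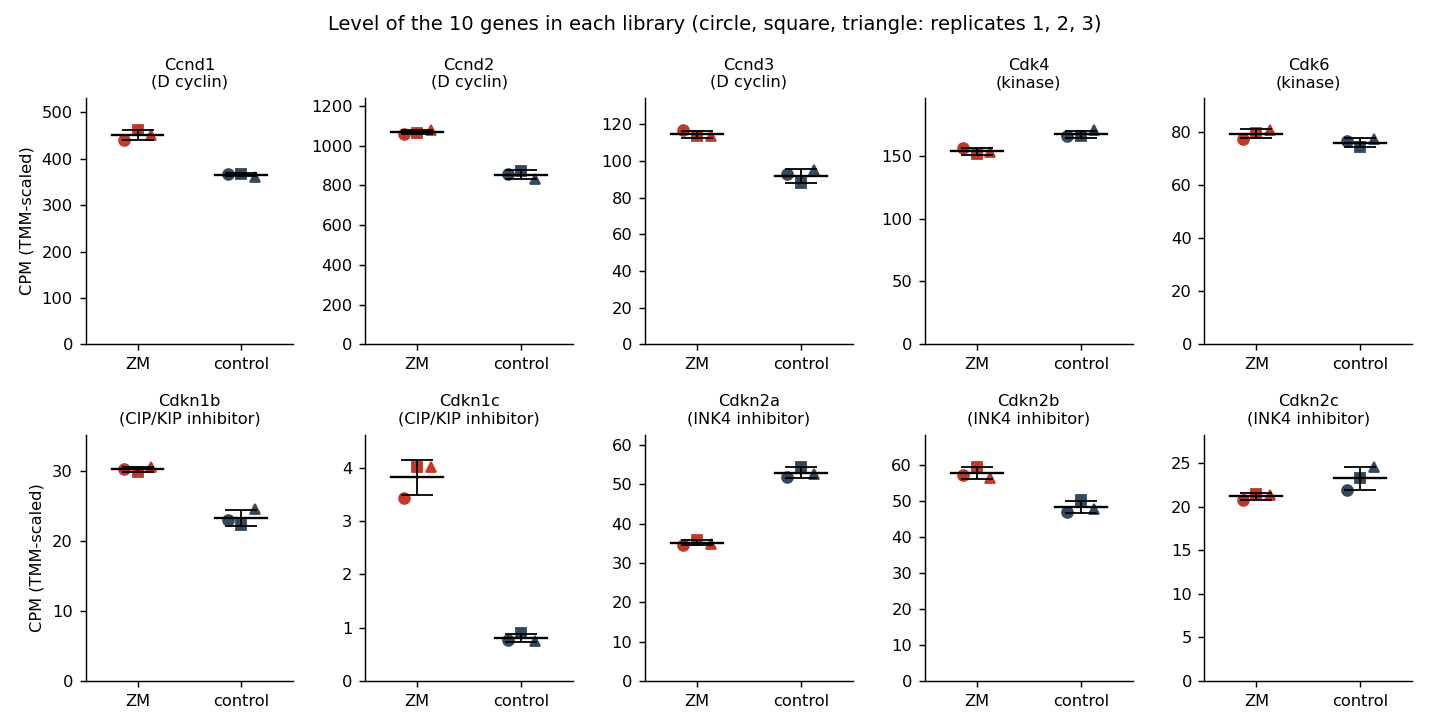
CPM of each gene in each library (points), with the mean and SD (black), 3 ZM libraries left and 3 control libraries right, each axis starting at 0. The groups are separate in every panel, widest for Cdkn1c and Cdkn2a and narrowest for Cdk6 and Cdkn2c.

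Ccnd2 (chromosome 6, 127125162 to 127152193, minus strand, mm10) was the most abundant of the 10 genes. It had 1061, 1064 and 1079 CPM in ZM libraries, against 856.1, 874.3 and 832.1 CPM in control libraries. Every ZM library lay above every control library, and the log2 fold change was 0.32 ± 0.03 (SE; adjusted p = 2.91e-07, edgeR). Ccnd1 (chromosome 7, 144929931 to 144939925, minus strand), a classic target of growth factor signalling, had 440.4, 462.0 and 451.4 CPM with ZM, against 367.4, 367.4 and 361.4 CPM in control libraries. It was higher in all 3 ZM libraries, by 0.30 ± 0.03 on the log2 scale (adjusted p = 7.38e-07, edgeR). Ccnd3 (chromosome 17, 47505051 to 47599691, plus strand), the third D cyclin, had 116.8, 113.5 and 113.3 CPM with ZM, against 92.59, 87.68 and 94.95 CPM without. Again the groups were apart, with a log2 fold change of 0.32 ± 0.04 (adjusted p = 3.89e-06, edgeR).

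The mixture of the 3 D cyclins differed little between the groups. In FPKM (deposited values scaled to exon length and library size, used wherever genes are compared with each other), Ccnd2 made up 51.05% ± 0.51 of summed D cyclin FPKM with ZM and 50.76% ± 0.56 in control libraries (SD, n = 3 each). Ccnd1 made up 43.08% ± 0.62 and 43.39% ± 0.25, and Ccnd3 5.87% ± 0.17 and 5.85% ± 0.31, in ZM and control libraries. All 3 shares overlapped between the groups. The summed D cyclins came to 224.5, 228.0 and 228.2 FPKM in ZM libraries, against 176.5, 175.7 and 173.0 FPKM in control libraries.

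Of the kinases that D cyclins activate, Cdk4 (chromosome 10, 127063534 to 127067920, plus strand) had 156.4, 151.1 and 152.9 CPM with ZM, against 166.0, 165.4 and 170.5 CPM without. The ZM libraries were all lower, by -0.12 ± 0.03 on the log2 scale (adjusted p = 0.00636, edgeR). That call depended on scaling: with library size alone the log2 fold change was -0.06 (adjusted p = 0.142), and on log2(FPKM + 1) it was -0.06 (adjusted p = 0.12, limma). Over its 14 alternatives the adjusted p ran between 0.00418 and 0.142.

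Cdk6 (chromosome 5, 3341485 to 3531008, plus strand) had 77.48, 79.66 and 80.67 CPM with ZM, against 76.4, 74.16 and 77.28 CPM in control libraries. The lowest ZM library lay just above the highest control library, and the log2 fold change of 0.06 ± 0.04 did not pass (adjusted p = 0.205, edgeR). With library size alone it was 0.12 and passed (adjusted p = 0.0179), within a range of 0.0179 to 0.463 over 14 alternatives. Cdk4 was the more abundant kinase per length, at 89.29% ± 0.34 of summed Cdk4 and Cdk6 FPKM with ZM and 90.46% ± 0.11 in control libraries, and these shares did not overlap. Their sum was 53.98 ± 0.88 FPKM with ZM and 55.73 ± 1.23 FPKM without (SD, n = 3 each), so D cyclin FPKM was 420.5% ± 10.3 of kinase FPKM in ZM libraries and 314.3% ± 9.66 in control libraries.

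**Figure D2:**
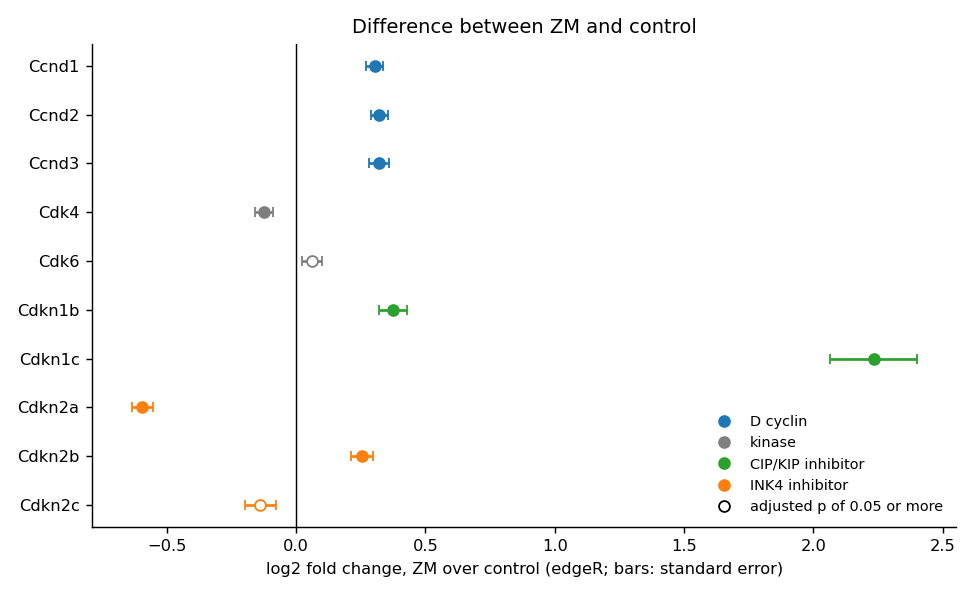
Log2 fold change of each gene, ZM over control, with its standard error, coloured by role; open symbols did not pass an adjusted p of 0.05. Ccnd1, Ccnd2 and Ccnd3 lie at 0.30 to 0.32, Cdkn1c at 2.23 and Cdkn2a at -0.59.

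Among the inhibitors, Cdkn1c (p57; chromosome 7, 143458339 to 143461050, minus strand), an imprinted CIP/KIP gene expressed from the maternal copy, was the lowest of the 10 genes and changed most. It had 200, 182 and 200 counts in ZM libraries 1 to 3, against 32, 61 and 46 counts in control libraries 1 to 3. That made 3.43, 4.002 and 4.015 CPM with ZM, against 0.7619, 0.8992 and 0.7524 CPM without. The lowest ZM library was more than 3-fold above the highest control library, and the log2 fold change was 2.23 ± 0.17 (adjusted p = 1.14e-08, edgeR), larger in size than for 98.7% of tested genes. On the log2(FPKM + 1) scale, which understates low genes, it was 1.07. An annotated transcript on the other strand, Gm44732, covers 30.7% of Cdkn1c exon bases, and without a stated strand setting reads of the 2 cannot be told apart.

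Cdkn1b (p27; chromosome 6, 134920401 to 134925513, plus strand), which holds cells out of the cycle as they differentiate, had 30.15, 29.82 and 30.54 CPM with ZM, against 23.0, 22.3 and 24.48 CPM in control libraries. All 3 ZM libraries were higher, by 0.38 ± 0.05 on the log2 scale (adjusted p = 2.58e-05, edgeR). Summed, Cdkn1b and Cdkn1c stood at 16.07% ± 0.52 of kinase FPKM with ZM and 9.67% ± 0.21 without (SD, n = 3 each). Cdkn1c made up 22.0% ± 1.52 of that sum with ZM and 7.19% ± 0.96 in control libraries, and the groups did not overlap. The third CIP/KIP gene, Cdkn1a (p21, a p53 target), was far more abundant, at 119.4 FPKM with ZM and 109.6 FPKM without. Its log2 fold change of 0.06 ± 0.03 did not pass (adjusted p = 0.121, edgeR), but it passed with library size alone (0.12, adjusted p = 0.00435).

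The INK4 genes did not move as one. Cdkn2a (chromosome 4, 89274471 to 89294653, minus strand) had 34.7, 35.84 and 34.95 CPM with ZM, against 51.93, 54.51 and 52.63 CPM in control libraries. The groups were far apart and Cdkn2a fell by 0.59 ± 0.04 on the log2 scale (adjusted p = 5.70e-09, edgeR), the largest fall of the 10. The gene makes p16INK4a and, from another start and reading frame, p19ARF, which restrains Mdm2; the counts per gene pool both.

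Cdkn2b (p15; chromosome 4, 89306299 to 89311039, minus strand), known as a TGF-beta-induced inhibitor, lies 11645 bases from Cdkn2a and moved the other way. It had 57.41, 59.63 and 56.38 CPM with ZM, against 47.09, 50.31 and 47.86 CPM without. It rose in all 3 ZM libraries, by 0.25 ± 0.04 on the log2 scale (adjusted p = 1.19e-04, edgeR). Cdkn2c (p18; chromosome 4, 109660876 to 109667189, minus strand) had 20.77, 21.46 and 21.34 CPM with ZM, against 21.95, 23.3 and 24.58 CPM in control libraries. Its log2 fold change of -0.14 ± 0.06 did not pass (adjusted p = 0.074, edgeR). It passed without control replicate 1 (-0.18, adjusted p = 0.0299), within a range of 0.0299 to 0.316 over 14 alternatives, and its FPKM values overlapped between the groups. Cdkn2d (p19INK4d), the INK4 gene outside the 10, was at 14.84 CPM with ZM and 14.10 CPM without (log2 fold change 0.07 ± 0.08, adjusted p = 0.468, edgeR).

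The opposite moves exchanged the order of Cdkn2a and Cdkn2b. With ZM, Cdkn2b had 42.23, 43.63 and 41.42 FPKM and Cdkn2a 30.27, 31.1 and 30.46 FPKM. In control libraries Cdkn2b had 33.31, 35.14 and 33.85 FPKM and Cdkn2a 43.56, 45.16 and 44.15 FPKM. Cdkn2b was therefore 138.6% ± 2.29 of Cdkn2a with ZM and 76.98% ± 0.73 in control libraries (SD, n = 3 each). Of summed INK4 FPKM, Cdkn2a made up 37.75% ± 0.29 with ZM and 50.98% ± 0.29 without, Cdkn2b 52.32% ± 0.47 and 39.25% ± 0.35, and Cdkn2c 9.93% ± 0.19 and 9.77% ± 0.50. The first 2 shares were apart and that of Cdkn2c overlapped. The sum itself was 81.09 ± 1.55 FPKM with ZM and 86.88 ± 1.92 FPKM without, and as a ratio to kinase FPKM, 150.3% ± 5.05 and 156.0% ± 5.75, the groups overlapped.

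**Figure D3:**
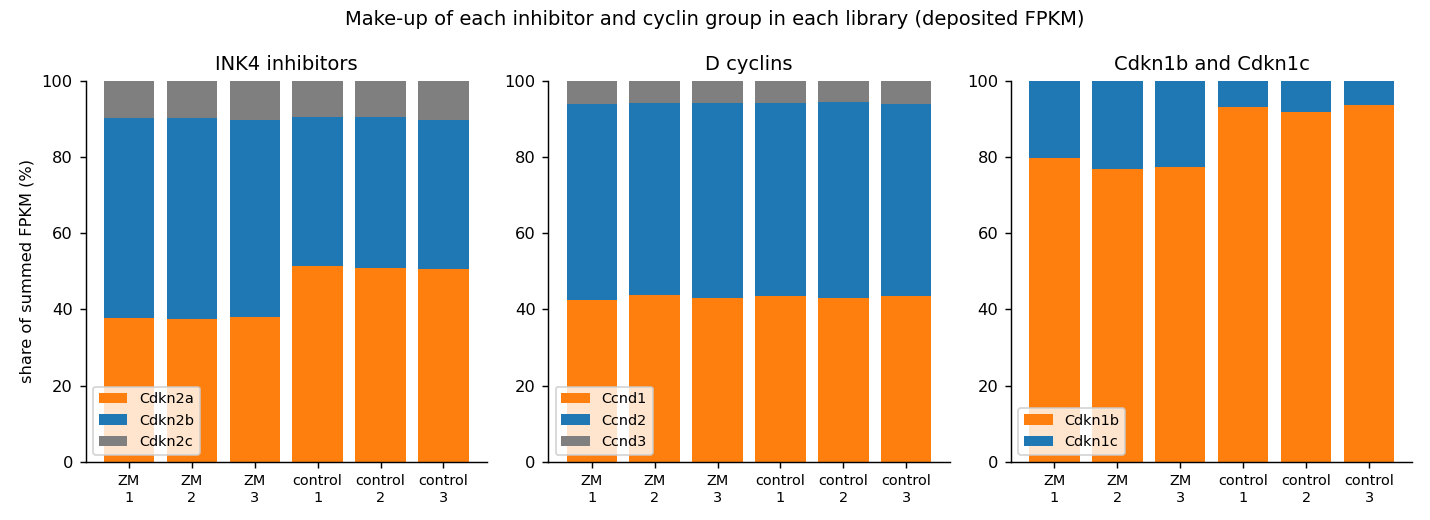
Share of each gene in the summed deposited FPKM (percent) of the INK4 genes, the D cyclins, and Cdkn1b with Cdkn1c, in ZM libraries 1 to 3 (left bars) and control libraries 1 to 3 (right bars). Cdkn2b is the larger INK4 share in ZM libraries and Cdkn2a in control libraries, while the D cyclin shares are alike in the 6 libraries.

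By level, the order with ZM was Ccnd2 (115.8 FPKM), Ccnd1 (97.76), Cdk4 (48.19), Cdkn2b (42.43), Cdkn2a (30.61), Ccnd3 (13.32), Cdkn2c (8.049), Cdkn1b (6.762), Cdk6 (5.782) and Cdkn1c (1.909), and no neighbours in it overlapped. In control libraries it was Ccnd2 (88.88 FPKM), Ccnd1 (75.97), Cdk4 (50.41), Cdkn2a (44.29), Cdkn2b (34.1), Ccnd3 (10.24), Cdkn2c (8.486), Cdk6 (5.316), Cdkn1b (5.004) and Cdkn1c (0.3861). There Cdk6 and Cdkn1b overlapped, and no other neighbours did. These orders, and the shares and ratios above, depend on dividing by the length of all exons of a gene joined. That length was 13989 bases for Cdk6 and 1172 for Cdkn2a, and it can exceed the length of any single transcript. In CPM, which uses no length, Cdkn2a and Cdkn2b also exchanged order, at 35.16 and 57.81 CPM with ZM and 53.02 and 48.42 CPM without.

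Exons of other genes on the opposite strand cover 23.4% of Ccnd1 (LTO1), 19.7% of Cdk4 (Tspan31), 7.9% of Ccnd2, 4.1% of Ccnd3 (Bysl) and 2.6% of Cdk6, and 0 of Cdkn1b, Cdkn2a, Cdkn2b and Cdkn2c. Reads in these shared bases cannot be assigned to a gene without a stated strand setting. LTO1 was at 2.91 FPKM with ZM and 2.47 FPKM without. Tspan31 was at 32.1 FPKM with ZM and 32.4 FPKM without, below Cdk4 in both groups, and its log2 fold change was -0.08 ± 0.04 (adjusted p = 0.15, edgeR).

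Of the 17 nearest tested coding genes on either side of the 10, other than the 10 themselves, 5 were called higher, 5 lower and 7 were not called. Over all genes tested 22.8% were called higher and 22.4% lower. Of the called neighbours of called genes, 5 moved with the gene beside them and 4 against it. Cdkn1c lies in an imprinted domain. Slc22a18, a transporter 12685 bases away that is also expressed from the maternal copy, had 2.093, 2.705 and 2.49 CPM with ZM, against 0.8333, 1.076 and 1.178 CPM without (log2 fold change 1.22 ± 0.19, adjusted p = 5.48e-05, edgeR). The list of imprinted neighbours of Cdkn1c had 8 tested genes, whose imprinting in these cells was not measured. Of them 2 rose, Slc22a18 and the antisense RNA Kcnq1ot1 (0.22, named after its values were seen). The noncoding RNA H19 was the 1 that fell (-0.41 ± 0.10, adjusted p = 0.00776, edgeR). The list median was 0.11. That list reaches beyond the genes next to Cdkn1c, to H19 (chromosome 7, 142575529 to 142578143) and Igf2 (chromosome 7, 142650766 to 142666816). The other called neighbour of Cdkn2a was Mtap, the methylthioadenosine phosphorylase gene 93389 bases away, which fell with it (-0.32 ± 0.04, adjusted p = 2.69e-06, edgeR).

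Beside the D cyclins, LTO1 (0.18 ± 0.06, adjusted p = 0.0324) and Tpcn2 (0.18 ± 0.05, adjusted p = 0.00446), 246598 bases away, rose with Ccnd1 (edgeR). Whether the LTO1 rise holds Ccnd1 reads from the bases they share was not tested. Taf8 (0.17 ± 0.07, adjusted p = 0.0403, edgeR) rose with Ccnd3. The calls of LTO1 and Taf8 ended in 4 and 7 of 14 alternatives. Bysl fell by 0.20 ± 0.05 while Ccnd3 rose, and Tigar, 15604 bases from Ccnd2, fell by 0.29 ± 0.06 while Ccnd2 rose. Marchf9 rose by 0.44 ± 0.13 while Cdk4 fell. Apold1, an endothelial early-response gene 56204 bases from Cdkn1b, fell by 2.03 ± 0.18 while Cdkn1b rose. Rnf11, beside Cdkn2c, fell by 0.51 ± 0.03. The 7 that did not pass were Parp11 (0.15 ± 0.10), Tspan31, Fam133b (-0.04 ± 0.06), Gpr19 (-0.08 ± 0.14), Trpm5 (-0.47 ± 0.32), Elavl2 (-0.76 ± 0.46) and Faf1 (0.09 ± 0.04).

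Around the 10 genes, 9 lists gave 111 tested genes, of which 26 rose and 42 fell (edgeR). Over all genes tested 22.8% rose and 22.4% fell, which is the background for each list count below. The balance of these calls moved with the scaling: 38.2% of called pathway genes were higher under TMM, 54.1% under library size alone and 55.4% on log2(FPKM + 1). For the called ones among the 10 genes it was 75% under TMM and 87.5% under library size alone, and for all called genes 50.4% and 62.2%.

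Of the pocket proteins, which active CDK4 and CDK6 phosphorylate, Rb1 rose by 0.20 ± 0.05 (adjusted p = 0.00254) and Rbl2 (p130), which with E2F4 keeps resting cells quiet, by 0.38 ± 0.05 (adjusted p = 1.13e-05). Rbl1 (p107), itself an E2F target, fell by 0.30 ± 0.05 (adjusted p = 2.04e-04, all edgeR). In the list of pocket proteins and E2F factors 4 of 13 rose, 5 fell and 4 did not pass, with a median of -0.11. E2f2, an activating E2F, had 7.598, 6.926 and 7.991 CPM with ZM, against 16.52, 15.64 and 15.95 CPM in control libraries. It fell by 1.09 ± 0.08 on the log2 scale (adjusted p = 4.76e-09, edgeR), more than any other gene of that list. E2f1 fell by 0.16 ± 0.05 (adjusted p = 0.013) and the E2F partner Tfdp2 rose by 0.51 ± 0.07 (adjusted p = 2.79e-05, edgeR). The repressor E2f8 fell by 0.30 ± 0.10 (adjusted p = 0.023, edgeR).

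Of 9 tested genes of the cyclin E, cyclin A and CDK2 step 5 fell and the other 4 did not pass, with a median of -0.16: the phosphatase Cdc25a (-0.27 ± 0.06), Cdk2 (-0.24 ± 0.06), Ccne1 (-0.20 ± 0.06) and Ccna2 (-0.16 ± 0.06) were among them. Ccne2 did not pass (-0.13 ± 0.07, adjusted p = 0.153, edgeR). Of 16 E2F target genes of DNA replication 8 fell and 1 rose (median -0.15), with the thymidylate synthase Tyms at -0.46 ± 0.06, the licensing factors Cdt1 at -0.31 ± 0.08 and Cdc6 at -0.27 ± 0.11, and the ribonucleotide reductase subunit Rrm1 at 0.16 ± 0.04. The remaining 7 did not pass, and the call of Cdc6 (adjusted p = 0.0439, edgeR) ended in 10 of 14 alternatives, where its adjusted p ran between 0.0109 and 0.199. Of 12 mitotic genes 8 fell and the other 4 did not pass (median -0.24). Mki67, a marker of cycling cells, had 121.5, 115.9 and 129.2 CPM with ZM, against 165.9, 166.6 and 174.3 CPM without, a fall of 0.47 ± 0.04. The mitotic cyclin Ccnb1 fell by 0.37 ± 0.06, though pseudogene copies match 51.9% of its longest transcript, and the spindle checkpoint kinase Bub1 fell by 0.36 ± 0.07. Over all 9 lists 42 genes were called lower with TMM scaling and 28 with library size alone.

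The list of D cyclin and p27 turnover split, with 5 of 14 higher, 3 lower and a median of 0.02. The ligase subunits Rnf123 (0.25 ± 0.05) and Ubac1 (0.25 ± 0.05), which in cultured cells degrade p27 in G1, and the scaffold Cul1 (0.21 ± 0.04) rose. Cks1b, the cofactor that lets SKP2 recognise p27, fell by 0.37 ± 0.07, and Usp2, a deubiquitinase of cyclin D1, by 0.31 ± 0.07. Skp2 itself did not pass (-0.12 ± 0.08, adjusted p = 0.229, edgeR). Ddb1 fell by 0.09 ± 0.03.

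Regulators of D cyclin and Cdkn1b transcription changed in both directions, 7 of 18 higher and 9 lower, with a median of -0.06. Foxo3, Foxo1 and Foxo4, forkhead factors known to activate Cdkn1b, rose by 0.46 ± 0.04, 0.35 ± 0.05 and 0.28 ± 0.05. Foxo3 had 106.2, 102.3 and 105.3 CPM with ZM, against 79.4, 73.17 and 76.55 CPM without. Egr1, an immediate early factor, had 40.19, 39.86 and 39.39 CPM with ZM, against 115.1, 131.5 and 114.9 CPM in control libraries, a fall of 1.60 ± 0.05 on the log2 scale (adjusted p = 7.28e-13, edgeR). Fosl1 fell by 1.13 ± 0.11, although 57.2% of its exon bases overlap Ccdc85b on the other strand, and Ets2 by 0.73 ± 0.06. Their relatives did not all move this way: Fos (-0.57 ± 0.06) and Junb (-0.46 ± 0.07) fell, Jun did not pass (-0.02 ± 0.04, adjusted p = 0.762, edgeR) and Ets1 rose (0.15 ± 0.04), these 4 being named after their values were seen. Myc, which activates Ccnd2 and Cdk4 and represses Cdkn2b in other settings, fell by 0.33 ± 0.05 (adjusted p = 2.39e-05, edgeR).

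Of 18 regulators of the Cdkn2a and Cdkn2b locus 7 rose and 3 fell, with a median of 0.09. Cbx7, a Polycomb subunit that represses the locus, had 7.255, 7.168 and 6.786 CPM with ZM, against 3.0, 2.963 and 3.647 CPM without, a rise of 1.14 ± 0.11 (adjusted p = 3.50e-07, edgeR). The Polycomb ligase subunit Ring1 rose by 0.39 ± 0.07, and Kdm6b, a demethylase that removes the Polycomb mark at the locus, by 0.44 ± 0.06. Tbx3, a T-box repressor of ARF, was low and fell by 1.42 ± 0.11, Mdm2, the p53 ligase that ARF restrains, by 0.33 ± 0.04, and the Polycomb subunit Eed by 0.14 ± 0.05. The 3 CDK inhibitors outside the 10 genes, Cdkn1a, Cdkn2d and Cdkn3 (the last named after its values were seen), did not pass in edgeR, also at unadjusted p (0.0649, 0.352 and 0.129).

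**Figure D4:**
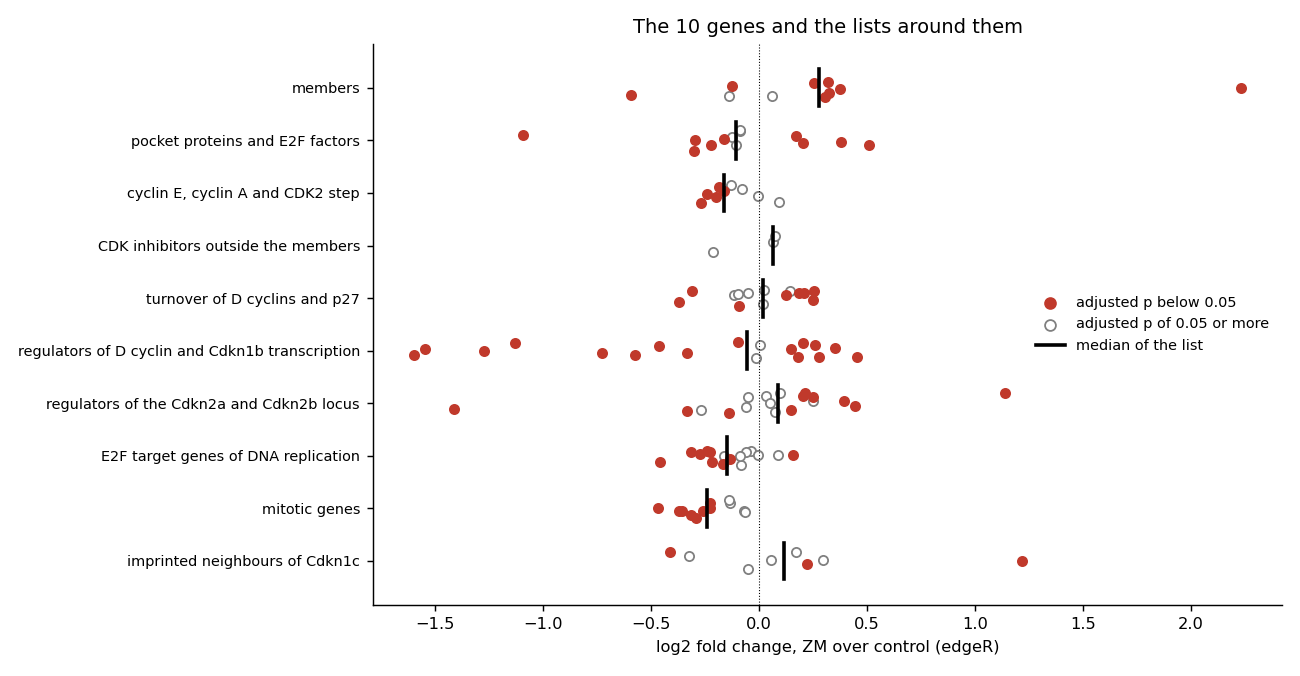
Log2 fold change (ZM over control) of each tested gene in the 10 genes and the 9 lists around them, 1 point a gene; filled points passed an adjusted p of 0.05 and black bars are list medians. The bar of the 10 genes lies at 0.28 and those of the cyclin E step, E2F targets and mitotic genes at -0.16, -0.15 and -0.24.

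Besides Cdc6, calls ended in 8 of 14 alternatives for Ccna2 and Eed, 7 for Ddb1, 6 for E2f8, 5 for E2f1, 4 for Ccne1 and 3 for Cdt1, each with the same direction throughout. Exons of other genes on the opposite strand cover 21% of Rbl2, 18.0% of Rnf123, 17.4% of Ccne2, 14.9% of Rb1, 12.5% of Ccna2 and 11.2% of E2f8 exon bases.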

How the data were processed

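RNA sequencing of 6 samples was used, 3 with 10 μM ZM and 3 without, grouped by their titles. Tools listed in the submitters' processing notes are HISAT2 2.2.1, Subread with featureCounts 2.0.3, and DESeq2, on mm10. Not given in the sources used here were annotation, strand setting and multi-mapping. Per the file headers, read counts and FPKM values were deposited for 31401 genes in each sample, and 0 sample columns were left unmapped. The counts deposited by the authors were not normalized. The deposited FPKM values equal the count divided by the column total and by a gene length, which for 98.2% of matched genes is the GENCODE M21 length of all exons joined. The 249 rows without a symbol stayed in library sizes and tests.

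Counts were tested with edgeR 4.0.16 (R 4.3.3; filterByExpr, TMM scaling, robust quasi-likelihood F test, Benjamini-Hochberg over 17533 genes, threshold 0.05), the 2 groups alone in the fit. The coefficient of variation that edgeR terms biological, here the scatter between libraries of a group, was 6.46%. Standard errors are the size of the log2 fold change over the square root of F. Levels of 1 gene are mostly in TMM-scaled CPM, and levels between genes, sums and shares are in FPKM with no test. Levels of Cdkn1a, LTO1 and Tspan31 are also given in FPKM. FPKM lack TMM scaling, which raises ZM over control. The median log2 fold change was 0.0416 on log2(FPKM + 1) for the genes tested there, against -9e-04 with TMM for all genes tested. Depth sets the precision of low genes such as Cdkn1c. Within groups, libraries differed by more than counting noise (chi-square 5.30 to 8.98 per degree of freedom) and each counted as 1 sample. Coordinates are GENCODE M21 on GRCm38 (mm10), 1-based, and promoter windows are RefSeq on GRCm38.p6. Overlapping exons came from GENCODE M21 and near-identical transcripts from BLAST+ 2.17.0 (at least 97% identity over 100 bases).

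The 10 genes and the lists were chosen with earlier results of these data known. Named are all 10, in each pathway list up to 3 risen and 3 fallen called genes with at least 1 FPKM in the higher group, a fixed set of Cdkn1a, Cdkn2d, Rb1, Rbl1, Rbl2, E2f1, Ccne1, Ccne2, Cdk2, Ccna2, Myc, Skp2 and Mki67, and the nearest tested coding gene on each side of each of the 10. Alternatives were DESeq2 1.42.0, RLE factors, library size alone, other filters, a replicate block, limma 3.58.1 on log2(FPKM + 1) and log2(FPKM + 0.1) for genes with a mean of at least 1 FPKM (12205 genes), and leaving out each sample.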

Additional observations from a re-analysis of the deposited data

How the results depend on the processing

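Of 140 values for the 10 genes under 14 alternatives, 133 kept their direction and side of the threshold, 3 lost the call, 4 gained it and 0 changed sign. Of 816 values for 59 other named genes, 743 kept both, 62 lost the call, 7 gained it and 4 changed sign. Those 4 were all Fam133b, beside Cdk6, which was not called: its log2 fold change was -0.04, but 0.0229 with library size alone, 0.0148 on log2(FPKM + 1), 0.0198 on log2(FPKM + 0.1), and -0.0814 to 0.0017 with 1 replicate left out, positive without ZM replicate 3.

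Cdk4 lost its call with library size alone (-0.0647, adjusted p = 0.142) and in limma on log2(FPKM + 1) (-0.0635) and log2(FPKM + 0.1) (-0.0647, adjusted p = 0.12 in both). Cdk6 gained a call in the same settings (0.1213, 0.1027 and 0.1191, adjusted p = 0.0179, 0.0433 and 0.0435). Each of these 3 settings therefore called 1 of the 10 genes lower. Library size alone moved the median of all tested genes to 0.0587, against -9e-04 with TMM. On log2(FPKM + 1) 2348 genes were called lower and on log2(FPKM + 0.1) 2345, against 3935, with 25 pathway genes called lower in both, against 42; fewer genes (12205) were tested there.

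Leaving out 1 sample gave 6813 to 7712 called genes, 3344 to 3870 of them lower, 8 to 9 of the 10 genes, and 54 to 64 pathway genes. The log2 fold change of Cdkn2c ran between -0.1761 and -0.0971, of Cdk4 between -0.1366 and -0.1109, of Cdk6 between 0.0439 and 0.0797 and of Cdkn1c between 2.1781 and 2.3281. Computed on counts instead of FPKM, the difference in share (ZM minus control, percentage points) was -2.838 for Cdk4, -11.71 for Cdkn2a and 11.81 for Cdkn2b, against -1.176, -13.23 and 13.07. Same-numbered samples did not deviate together (correlations -0.04, 0.058 and -0.015), and differently numbered ones ran between -0.082 and 0.085. With 3 samples in each group this cannot tell whether the numbers pair samples. With the replicate block 7752 genes and the same number, 8, of the 10 genes were called. Of the other named genes Cdc6 lost its call there (adjusted p = 0.0542), as it did in 9 further alternatives, including without ZM replicate 1 or 3 or any 1 control replicate (highest adjusted p = 0.199).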
